A study of Homo sapiens with 14 samples.

Results

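The clustered protocadherin genes were examined in the accessible chromatin of 2 human multiple myeloma (MM) cell lines. Members were all protein-coding genes of chromosome 5 in GENCODE release 44 whose names begin with PCDHA, PCDHB or PCDHG. This gave 53 of 20033 protein-coding genes, made up of 15 PCDHA, 16 PCDHB and 22 PCDHG genes. Accessibility had been measured by Omni-ATAC, in which a transposase places sequencing adapters in open chromatin, in 14 libraries of MM.1S and RPMI8226 cells. MM cells were kept in monoculture (MONO), or for the same incubation time with HS5, a human bone marrow stromal cell line. In the coculture, they came from the upper transwell (TSW), which stromal cells could not enter, or from the lower chamber (CO), where the cells were in contact. MM.1S had 3 MONO, 3 TSW and 3 CO libraries, and RPMI8226 had 1 MONO, 2 TSW and 2 CO libraries. The cells had been sorted as CD90- CD38+, and the study noted that a small share of HS5 cells remained in those of the lower chamber.

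One list of reference peaks was analysed for each line, with 72802 peaks for MM.1S and 79969 for RPMI8226 on the hg38 build. The only value given for a peak is a whole number, read here as its support, the number of libraries of that line in which it was called. A peak is listed when it was called in at least 3 libraries of any condition, which is 3 of 9 in MM.1S and 3 of 5 in RPMI8226. The lists hold no value for a single library and no read counts, so no test between MONO, TSW and CO was possible, and a gene without a listed peak may still have had a peak in fewer than 3 libraries. Depth cannot be computed from the lists, but the study's supplement tabulates read totals, in which a MONO library of MM.1S is by far the shallowest and the RPMI8226 libraries are all shallower than the remaining MM.1S libraries. The deepest RPMI8226 library falls only narrowly below the shallowest of those remaining. The part of depth in the support of a peak, or in peaks listed for MM.1S alone, was not tested. An accessible site in some of the cells and a weaker site in all of them cannot be told apart. Of 10 plasma cell markers, 10 had a start-site peak in MM.1S and 9 in RPMI8226, where JCHAIN, the joining chain of secreted antibodies, had none. Of 10 stromal markers, 5 had a start-site peak in MM.1S and 3 did in RPMI8226, that is 50.0% and 30.0%, against 65.3% and 58.0% of all protein-coding genes. FN1 and COL6A1, which encode fibronectin and a collagen chain, had one in every library of both lines, COL1A2 had one with support 6 and 3, and PDGFRB and TWIST1 had one with support 9 in MM.1S alone. None was listed in either line for the matrix genes COL3A1, LUM and DCN or for THY1, which encodes the CD90 used in the sort. Within 2500 bp of the start, 6 of the 10 stromal markers had a peak in MM.1S and 5 did in RPMI8226, against 71.5% and 65.2% of protein-coding genes. In this wider window COL1A1, a collagen gene without a start-site peak, had a peak in every library of both lines, and PDGFRB had one with support 5 in RPMI8226. The part of stromal cells in the members' peaks was not tested.

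Clustered protocadherins are cell-surface cadherins that bind copies of themselves on neighbouring cells. They are best known from neurons, where each cell uses a few of the variable promoters and thereby carries its own surface identity. In the PCDHA and PCDHG clusters each member has a variable first exon with its own promoter, which is spliced to constant exons shared by the whole cluster. The variable exon encodes the extracellular cadherin repeats and the membrane span, and the constant exons encode the shared cytoplasmic end. PCDHB genes do not use constant exons. In the canonical transcripts, 37 members had 4 exons and the 16 PCDHB members had 1. The first exon was 2545 bp in PCDHA1 and 2592 bp in PCDHGA1, and the last constant exon was 2721 bp in PCDHA and 2029 bp in PCDHG. The last members of the PCDHA and PCDHG clusters, PCDHAC1, PCDHAC2, PCDHGC3, PCDHGC4 and PCDHGC5, are known as the C-type genes. CTCF and cohesin are known to link variable promoters with downstream enhancers, and DNA methylation of the promoters is known to silence them.

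The clusters lie on the forward strand of chromosome 5, with PCDHA at 140786136-141012347, PCDHB at 141051374-141249365 and PCDHG at 141330514-141512977. Member promoters are known for a conserved sequence element with the letters CGCT, a short distance upstream of the start. RefSeq promoter sequences (GRCh38.p14, from 250 bases before to 50 after the start) were matched for 47 of the 53 members, the others being PCDHA3, PCDHA13, PCDHB6, PCDHB11, PCDHGA12 and PCDHGC5. The word of 8 letters found in the most member promoters of a cluster, on the strand of the gene, was ATGTCGCT in PCDHA, GTGGCGCT in PCDHB and GCCGCTGT in PCDHG. The following stretches of 40 bases show that word in capitals. They were chosen to set members with a start-site peak in both lines beside members of the same cluster without one, after the peaks were known.

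In PCDHA, a start-site peak was listed in both lines for PCDHA2 (chr5:140794777-140794816) and in neither for PCDHA1 (chr5:140786082-140786121) or PCDHA8 (chr5:140841126-140841165).
PCDHA2: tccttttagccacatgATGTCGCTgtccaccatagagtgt
PCDHA1: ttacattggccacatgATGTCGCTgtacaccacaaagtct
PCDHA8: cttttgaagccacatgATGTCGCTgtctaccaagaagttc
In PCDHB, it was listed in both lines for PCDHB2 (chr5:141094540-141094579) and PCDHB15 (chr5:141245310-141245349), in MM.1S for PCDHB7 (chr5:141172562-141172601) and in neither for PCDHB16 (chr5:141182306-141182345).
PCDHB2: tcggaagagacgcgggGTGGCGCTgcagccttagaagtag
PCDHB15: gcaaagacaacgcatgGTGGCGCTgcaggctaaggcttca
PCDHB7: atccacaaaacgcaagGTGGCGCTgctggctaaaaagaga
PCDHB16: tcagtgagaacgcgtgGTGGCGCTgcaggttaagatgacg
In PCDHG, it was listed in both lines for PCDHGB1 (chr5:141350023-141350062) and PCDHGA10 (chr5:141412929-141412968), in MM.1S for PCDHGA7 (chr5:141382647-141382686) and PCDHGC3 (chr5:141475878-141475917) and in neither for PCDHGA9 (chr5:141402712-141402751).
PCDHGB1: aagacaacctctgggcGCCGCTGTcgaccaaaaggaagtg
PCDHGA10: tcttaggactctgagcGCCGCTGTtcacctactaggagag
PCDHGA7: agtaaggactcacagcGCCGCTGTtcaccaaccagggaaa
PCDHGC3: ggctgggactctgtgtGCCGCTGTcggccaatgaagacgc
PCDHGA9: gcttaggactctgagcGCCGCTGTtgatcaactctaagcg

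ATGTCGCT was present in 9 of the 13 matched PCDHA promoters and in 0.157% of all 27305 RefSeq promoters. It lay a median of 52 bp before the start, and PCDHA9, PCDHA11 and both C-type genes of the cluster did not hold it. GTGGCGCT was present in 13 of 14 matched PCDHB promoters, against 0.641% of all promoters, at a median of 65 bp before the start. The exception was PCDHB1, the first gene of the cluster. GCCGCTGT was present in 11 of 20 matched PCDHG promoters, against 0.894% of all, at a median of 67 bp. Each word was picked as the one in the most promoters of its cluster, ties going to the word rarer in all promoters. The shares on both sides are therefore shaped by that choice. The words overlap in the letters CGCT, and CGCTG, a word picked after the longer ones were seen, occurred within 120 bp before the start in 38 of the 47 matched members (80.9%) and in 14.4% of all promoters.

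The sequence element was found at members with and without a start-site peak. The word of its own cluster was present in 33 members, of which 14 had a start-site peak in MM.1S and 8 in RPMI8226. The word lay inside the peak in 14 of those 14 in MM.1S and in 7 of those 8 in RPMI8226. Each of these peaks covers the start, and the words lie at most 97 bp before it. This overlap was therefore largely set by position and says little about the element. Of the 14 matched members without the word, 6 had a start-site peak in MM.1S and 2 in RPMI8226. Only the exact word was scored, and a member without it can hold a close variant. In PCDHG, 6 promoters without GCCGCTGT hold GTCGCTGT, and CGCTG was present in 19 of 20. For CGCTG, 17 of 38 members with it and 3 of 9 without it had a start-site peak in MM.1S, and 8 and 2 in RPMI8226. Those 3, PCDHA11, PCDHB14 and PCDHGB2, still hold the letters CGCT in their RefSeq promoters. In PCDHGB2, CGCTG itself lies farther than 120 bp before the RefSeq start. The counts therefore do not set members with the element against members that lack it. A core of the CTCF motif searched on both strands, CNAGNNGGC, was present in 4 of 47 member promoters (8.51%) and in 24.6% of all promoters. This says only that these letters were rarer in those windows.

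A start-site peak, defined as a listed peak within 500 bp of the start of the canonical transcript, was present for 22 of the 53 members in MM.1S (41.5%) and for 11 in RPMI8226 (20.8%). By the same rule, 65.3% of protein-coding genes had one in MM.1S and 58.0% had one in RPMI8226. Within the wider promoter window of 2500 bp on either side, the counts were 23 members (43.4%) and 12 members (22.6%), against 71.5% and 65.2% of protein-coding genes. The wider window added PCDHGB4 in MM.1S, through a peak of support 3 at chr5:141388479-141388735, and PCDHGA1 in RPMI8226, through a peak of support 4 at chr5:141328269-141328591. In both lines the share of members was below that of all protein-coding genes, and the gap was larger in RPMI8226.

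Each of the 11 members with a start-site peak in RPMI8226 also had one in MM.1S. These were PCDHA2, PCDHB2, PCDHB9, PCDHB11, PCDHB14, PCDHB15, PCDHGB1, PCDHGB2, PCDHGB3, PCDHGB5 and PCDHGA10. Among all protein-coding genes, 96.2% of those with a start-site peak in RPMI8226 had one in MM.1S, so this nesting was near the background. In the other direction, 11 of the 22 members with a peak in MM.1S had one in RPMI8226, against 85.4% of protein-coding genes. The 11 members with a peak in MM.1S alone were PCDHA11, PCDHB7, PCDHB10, PCDHB13, PCDHGA1, PCDHGA2, PCDHGA7, PCDHGB7, PCDHGA11, PCDHGA12 and PCDHGC3. The remaining 31 members had a start-site peak in neither list, as did 32.5% of protein-coding genes.

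**Figure D1:**
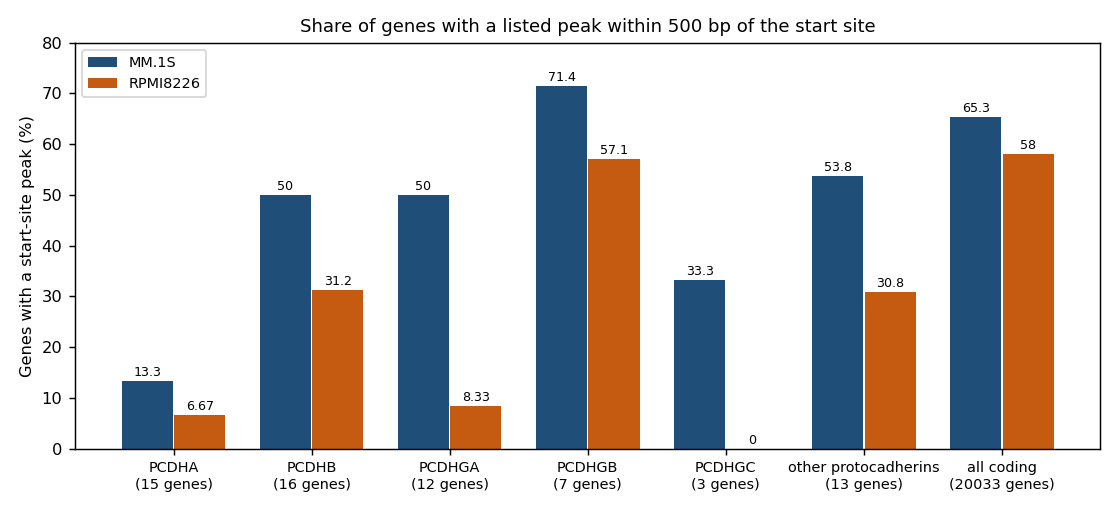
Bars give the percent of genes with a listed peak within 500 bp of the start site, for MM.1S and RPMI8226, in 5 classes of clustered protocadherins, in 13 other protocadherins and in all protein-coding genes. The PCDHA class is the lowest in MM.1S (13.3%), and PCDHGB is above all protein-coding genes in MM.1S (71.4% against 65.3%) and just below them in RPMI8226 (57.1% against 58.0%).

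The classes differed in their shares. PCDHA had a start-site peak for 2 of 15 members in MM.1S and 1 in RPMI8226. PCDHB had 8 and 5 of 16. In PCDHG, whose A and B types alternate along the cluster, 6 of 12 PCDHGA genes had one in MM.1S and 1 in RPMI8226, while for the 7 PCDHGB genes the counts were 5 and 4. These are complete counts of small classes and no test was made between them. Of the 5 C-type genes, PCDHGC3 alone had a start-site peak, in MM.1S.

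PCDHA2 was the sole PCDHA member with a peak in both lines. It had support 8 of 9 libraries in MM.1S (chr5:140794745-140795623) and 4 of 5 in RPMI8226 (chr5:140794759-140795247). PCDHA11 had support 8 in MM.1S and no peak in RPMI8226. The first member, PCDHA1, had no start-site peak in either line, nor had PCDHAC1 or PCDHAC2.

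In PCDHB, the peak of PCDHB2 was the one with the weakest support in MM.1S, at 3 of 9 libraries, and it was called in all 5 libraries of RPMI8226. The peaks of the middle and later genes went the other way. PCDHB9 had support 8 in MM.1S and 3 in RPMI8226, PCDHB11 had 9 and 3, PCDHB14 had 8 and 3, and PCDHB15, the last gene, had 9 and 3. PCDHB10 had support 8, PCDHB13 had 7 and PCDHB7 had 5 in MM.1S, with no peak in RPMI8226. From PCDHB9 onwards, the genes with a peak had support of 7 or more in MM.1S, and those also listed in RPMI8226 were at the minimum of 3 there. PCDHB1, the first gene, had none in either line. The peak at PCDHB14 also covers the start of ENSG00000279983, a protein-coding gene annotated there, and the assay cannot assign it to one of them.

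In PCDHG, PCDHGB1, PCDHGB2 and PCDHGB3 were called in all 9 libraries of MM.1S and all 5 of RPMI8226, and no other members reached both. PCDHGB5 had support 7 in MM.1S and 4 in RPMI8226, and PCDHGA10 had 8 and 3. Support in MM.1S was 9 for PCDHGA1, PCDHGB7, PCDHGA12 and PCDHGC3, 8 for PCDHGA7, 7 for PCDHGA2 and 6 for PCDHGA11, none of which had a start-site peak in RPMI8226. The members called in every library of one line thus ranged from those also called in every library of the other to those not listed there. PCDHGC4 and PCDHGC5 had no peak in either line.

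**Figure D2:**
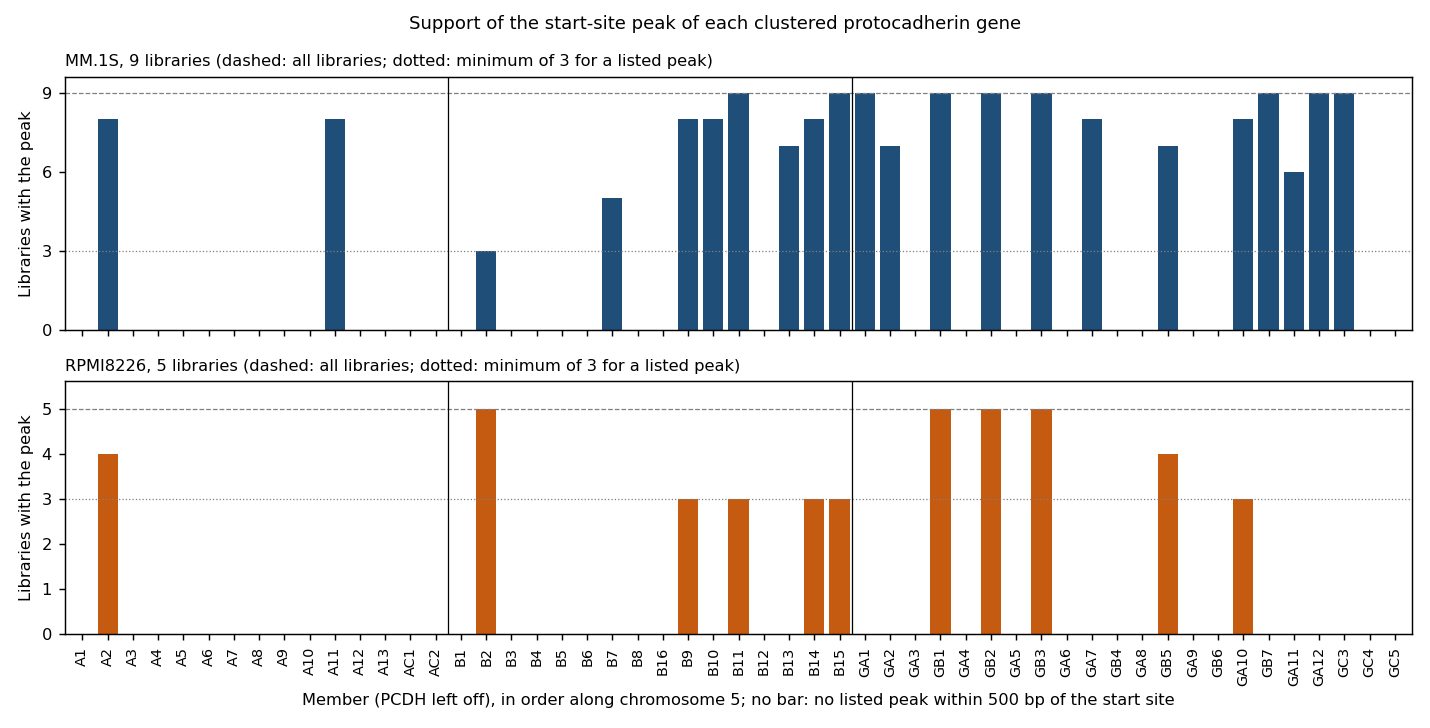
Bars give the number of libraries in which the start-site peak of each member was called, in MM.1S (upper panel, 9 libraries) and RPMI8226 (lower panel, 5 libraries), with members in order along chromosome 5 and vertical lines between the clusters. PCDHB2 has 3 libraries in MM.1S and 5 in RPMI8226, whereas PCDHB9, PCDHB11, PCDHB14 and PCDHB15 have 8 or 9 in MM.1S and 3 in RPMI8226.

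The share of start-site peaks called in every library was smaller for members than for protein-coding genes in general. In MM.1S, 9 of 22 (40.9%) had support 9, against 90.6% of the start-site peaks of all protein-coding genes. In RPMI8226, 4 of 11 (36.4%) had support 5, against 91.1%. Support below the maximum was mostly high in MM.1S, with 7 members at 8, 3 at 7 and 1 each at 6, 5 and 3. In RPMI8226, 5 members were at 3 and 2 at 4.

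Support limits which culture conditions a peak can come from. In MM.1S, 21 of the 22 peaks had support above 3, the number of CO libraries, so they were also called in cells not in contact with HS5. This held for 95.5% of the members' peaks and for 99.0% of the start-site peaks of all protein-coding genes. Support was above 6, which requires at least 1 MONO library, for 19 of them (86.4%), against 95.8%. The exceptions were PCDHB2, PCDHB7 and PCDHGA11. In RPMI8226 a peak needs 3 libraries to be listed, so every listed peak exceeds its 2 CO libraries by rule, which says nothing about the members. Of the 11 peaks, 4 (36.4%) were called in every library and so in the MONO library, against 91.1% of the start-site peaks of all protein-coding genes. These were the peaks of PCDHB2, PCDHGB1, PCDHGB2 and PCDHGB3. Which libraries lacked the other peaks cannot be read from the lists.

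The start-site peaks of members were narrow. Their median width was 492 bp in MM.1S (range 301 to 1224 bp) and 340 bp in RPMI8226 (range 140 to 489 bp). The median over start-site peaks of all protein-coding genes was 1030 bp in MM.1S and 746 bp in RPMI8226. The widest, at 1224 bp, was that of the C-type gene PCDHGC3 (chr5:141475691-141476914). The start site lay inside the peak for all 22 members in MM.1S and all 11 in RPMI8226. The same count is not given for all protein-coding genes. The middle of the members' peaks lay a median of 104 bp downstream of the start in MM.1S and 33 bp in RPMI8226. Over all protein-coding genes the median was 27 bp in MM.1S and -10 bp in RPMI8226, where a negative value is upstream.

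The upstream edge of the peak was at a similar place in most members. It lay a median of 121 bp before the start in MM.1S (range 81 to 275 bp) and 126 bp in RPMI8226 (range 41 to 154 bp). The downstream edge ranged more widely, from 171 to 948 bp into the gene in MM.1S and from 38 to 395 bp in RPMI8226. For the 11 members with a peak in both lines, the peaks of the lines overlapped in every case. Their upstream edges differed by a median of 13 bp and their downstream edges by a median of 202 bp. At PCDHGB2 the upstream edge was the same base in both lists. The MM.1S peak was the wider for 9 of the 11, and the RPMI8226 peak was the wider for PCDHB2 (473 against 301 bp) and PCDHGB2 (456 against 322 bp).

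**Figure D3:**
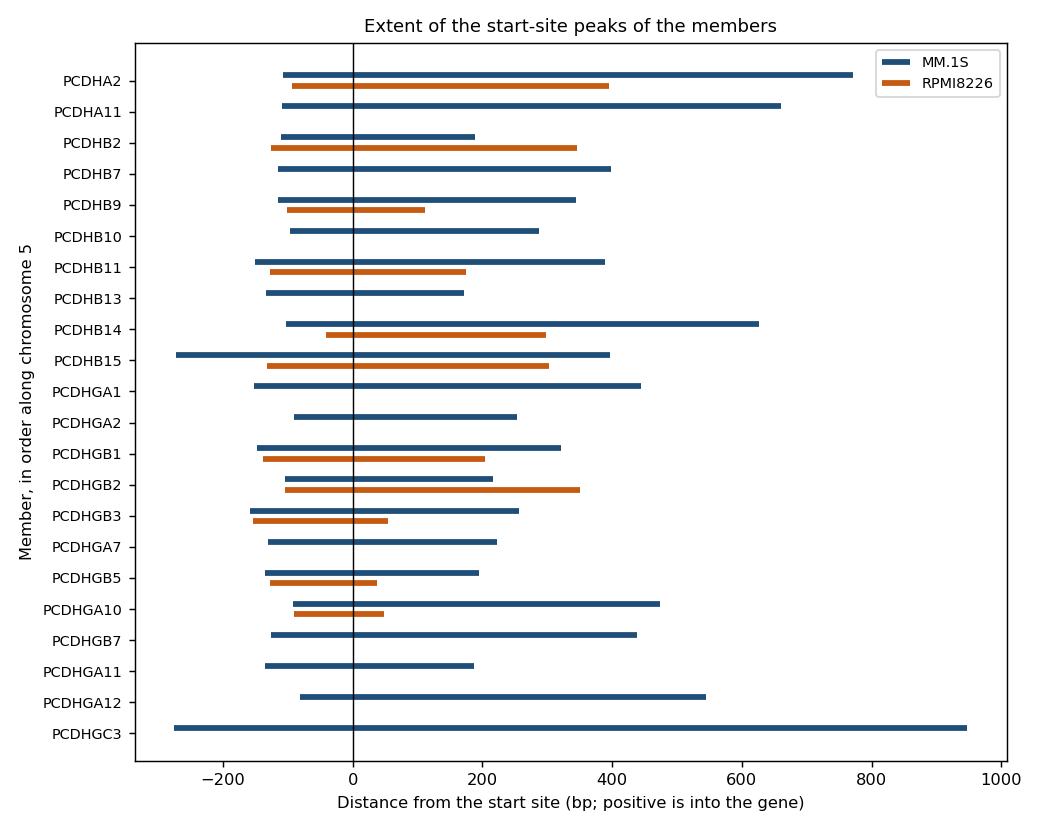
Horizontal bars show the extent of the start-site peak of each member in MM.1S (22 peaks) and RPMI8226 (11 peaks) relative to the start site at 0, in bp, with positive values into the gene. Upstream edges lie between 41 and 275 bp before the start, and downstream edges spread from 38 to 948 bp.

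Member promoters are poor in G and C. Their median GC content over the RefSeq window was 39.7%, against 58.3% over all promoters, while the ratio of observed to expected CpG was 0.59 against 0.58. The C-type genes were the richest, with 66.0% for PCDHAC1, 63.0% for PCDHAC2, 60.7% for PCDHGC4 and 59.0% for PCDHGC3, and of these PCDHGC3 alone had a start-site peak. Median GC content was 41.5% for members with a start-site peak in MM.1S and 38.7% for those without. In RPMI8226 it was 42.5% and 39.7%. The ranges of the members with and without a peak overlapped widely in both lines, from 34.3 to 59.0% and from 32.3 to 66.0% in MM.1S. The median CpG ratio went the other way, at 0.52 with a peak against 0.64 without in MM.1S. In RPMI8226 these ratios were 0.51 and 0.63, and the ranges overlapped in both lines. GC content also differed between the classes, so these medians are mixed with class.

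The members are similar to each other in sequence, and reads that mapped to several places had been left out by the authors. The share of 50-base windows within 500 bp of the start that occur once in hg38 was therefore computed for each member. Its median was 100.0% for members with a start-site peak in MM.1S and 99.1% for those without, and 100.0% and 99.7% in RPMI8226. Every window occurred once for 15 of 22 members with a peak and 13 of 31 without in MM.1S, and for 8 of 11 and 20 of 42 in RPMI8226, so in each line a larger share of the members with a peak (68.2% and 72.7%) than of those without (41.9% and 47.6%) was fully unique. The 13 PCDHA genes that are not C-type were all below 100.0%, and 2 of them had a peak in MM.1S and 1 in RPMI8226. These shares are therefore mixed with cluster membership. The lowest values were 53.6% at PCDHB13, which had a peak in MM.1S, and 57.8% at PCDHB8, which had none. All 5 C-type genes were at 100.0%. Paired reads of a fragment can be placed where one end is unique, and the part of this share in the calls was not tested.

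Of the pairs with the most similar promoters, the closest 3 differed in their peaks and the next pairs did not. How often pairs of members differ in general was not counted. Over all pairs of matched members the median identity of the aligned promoters was 47.9%, and the 3 closest pairs were PCDHGB4 with PCDHGB5 (80.1%), PCDHGB6 with PCDHGB7 (71.4%) and PCDHB8 with PCDHB13 (71.3%). In each of these pairs only the second gene had a start-site peak, PCDHGB5 in both lines and PCDHGB7 and PCDHB13 in MM.1S. PCDHGB4 had a promoter peak in MM.1S, with support 3, that begins 781 bp after its start. The partners were close in the share of unique windows, with 64.2% at PCDHGB4 and 63.6% at PCDHGB5, 83.8% at PCDHGB6 and 83.9% at PCDHGB7, and 57.8% and 53.6% for PCDHB8 and PCDHB13. These shares cover the whole window and not the peak alone, and the part of unique mapping in the differences was not tested. The next pairs, PCDHA7 with PCDHA9 (63.5%) and PCDHA6 with PCDHA8 (61.0%), had no start-site peak for any of the 4 genes. These pairs were picked for their identity, and the genes without a peak fall outside the rule for named genes and were chosen after their values were seen. The whole RefSeq promoters of the closest pair are shown with GCCGCTGT in capitals, PCDHGB4 at chr5:141387448-141387747 without a start-site peak and PCDHGB5 at chr5:141397697-141397996 with support 7 in MM.1S and 4 in RPMI8226.
PCDHGB4: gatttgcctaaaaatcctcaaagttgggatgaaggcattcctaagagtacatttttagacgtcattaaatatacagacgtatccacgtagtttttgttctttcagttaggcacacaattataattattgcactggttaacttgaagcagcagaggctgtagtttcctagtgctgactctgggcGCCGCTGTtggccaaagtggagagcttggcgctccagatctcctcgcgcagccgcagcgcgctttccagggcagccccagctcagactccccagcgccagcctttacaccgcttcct
PCDHGB5: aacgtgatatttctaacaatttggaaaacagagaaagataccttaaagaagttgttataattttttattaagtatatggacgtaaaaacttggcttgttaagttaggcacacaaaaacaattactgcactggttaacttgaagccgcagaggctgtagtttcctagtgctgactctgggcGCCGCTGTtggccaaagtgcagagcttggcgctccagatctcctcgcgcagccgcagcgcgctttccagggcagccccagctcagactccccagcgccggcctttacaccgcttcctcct

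Peaks away from start sites were examined over the clusters and 50 kb on either side (chr5:140736136-141562977, 827 kb). MM.1S had 32 peaks in this region, 22 of them at member start sites, and RPMI8226 had 24, of which 11 were at member start sites. The density was 3.87 peaks per 100 kb in MM.1S, against 2.18 over chromosome 5, and 2.9 against 2.69 in RPMI8226. In each list 16 of these peaks overlapped a peak of the other line, which was 50.0% of the MM.1S peaks and 66.7% of the RPMI8226 peaks, against 64.6% and 62.0% of all peaks. They were called in every library for 15 (46.9%) in MM.1S and 11 (45.8%) in RPMI8226, against 52.0% and 64.1% of all peaks.

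**Figure D4:**
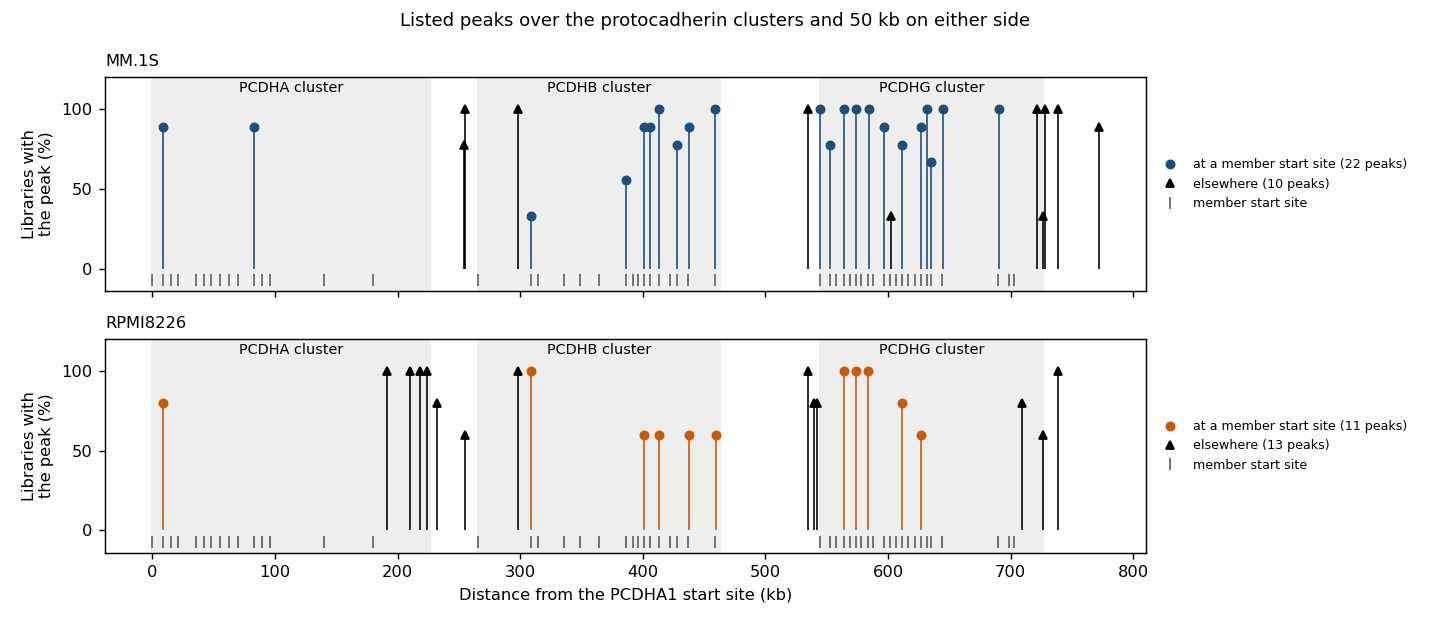
Each stem is a listed peak, placed by the distance of its middle from the PCDHA1 start site in kb, with its height giving the percent of libraries of the line in which it was called. Circles mark peaks at member start sites, triangles other peaks and ticks all 53 start sites, and 4 triangles at 100% stand over the 3' part of the PCDHA cluster in RPMI8226 with none there in MM.1S.

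The 3' part of the PCDHA cluster held peaks in RPMI8226 and none in MM.1S. Around the constant exons, which all PCDHA members share, 4 RPMI8226 peaks were called in all 5 libraries. The peak at chr5:140976973-140977338 lay in the intron between the variable exon of PCDHAC2 and the first constant exon. The peaks at chr5:140996036-140996487 and chr5:141004167-141004592 lay in intron 3, before the last constant exon. The peak at chr5:141010038-141010482 lay in that last exon (exon 4), in its untranslated part. None overlapped an MM.1S peak. MM.1S had no listed peak over 171 kb from 140869618 to 141040147, which holds the start sites of 4 members, whereas the longest such stretch in RPMI8226 was 182 kb, from 140795248 to 140976972, with 13 member start sites. Stretches at least as long occurred 212 times among the 3960 between peaks of chromosome 5 in MM.1S and 169 times among 4882 in RPMI8226. The median stretch was 18.2 kb in MM.1S and 13.9 kb in RPMI8226. Both stretches were thus long for the chromosome, but many others were as long.

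The PCDHG cluster held the opposite contrast around its own constant exons. In MM.1S, a peak of 877 bp at chr5:141507414-141508290, in intron 3 of PCDHGC5 covering an annotated start of a shorter PCDHGC3 transcript, was called in all 9 libraries. A peak of 1082 bp at chr5:141513791-141514872, beginning 816 bp after the last exon of the cluster, was also called in all 9, and it was the widest of the MM.1S peaks of the region outside start sites. Neither overlapped an RPMI8226 peak. RPMI8226 had instead a peak of 648 bp with support 4 at chr5:141495119-141495766, in intron 2. Both lines had a peak with support 3 in the untranslated part of exon 4, at chr5:141512416-141512584 in MM.1S and chr5:141512386-141512730 in RPMI8226.

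Other peaks of the region were shared by the lines. A peak in the PCDHB cluster between PCDHB1 and PCDHB2 was called in all 9 MM.1S libraries (chr5:141084503-141085050) and all 5 of RPMI8226 (chr5:141084510-141084696), although neither neighbour was called in every library of both lines. A peak between the PCDHA and PCDHB clusters had support 9 in MM.1S (chr5:141040830-141041425) and 3 in RPMI8226 (chr5:141041188-141041419). TAF7, which encodes a subunit of the general transcription factor TFIID and lies between PCDHB and PCDHG, had a peak of 1030 bp with support 9 in MM.1S and of 848 bp with support 5 in RPMI8226. This was wider than the start-site peak of any member in RPMI8226 and of all members but PCDHGC3 in MM.1S. SLC25A2, a carrier of the mitochondrial inner membrane next to TAF7, had no promoter peak in either list. Downstream of PCDHG, a peak near a transcript start of DIAPH1, which encodes a formin, had support 9 (chr5:141524681-141525491) and 5 (chr5:141524676-141525240).

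Genes related to the members were counted in the same way. Of 13 protocadherins outside the clusters, 7 had a start-site peak in MM.1S (53.8%) and 4 in RPMI8226 (30.8%), against 65.3% and 58.0% of all protein-coding genes. PCDH1, PCDH9 and PCDH15 had one in both lines, PCDH10, PCDH18, PCDH19 and PCDH20 in MM.1S alone and PCDH12 in RPMI8226 alone. In MM.1S all 7 were called in every library, whereas this held for 9 of the 22 clustered members. Of 14 regulators and partners of clustered protocadherins, 13 had a start-site peak in MM.1S and 11 in RPMI8226, against the same 65.3% and 58.0%. Those with one in both lines included CTCF, the cohesin subunits RAD21, SMC1A and SMC3, the cohesin loader NIPBL, the chromatin regulator SMCHD1 and the methyltransferases DNMT3B and SETDB1. STAG2, another cohesin subunit, had one with support 8 in MM.1S and none in RPMI8226, where it had a promoter peak. PTK2 had a promoter peak but no start-site peak in either line. WIZ, a zinc finger protein, had a start-site peak in MM.1S and no promoter peak in RPMI8226.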

How the data were processed

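Omni-ATAC libraries were made from sorted cells of both MM lines in MONO, TSW and CO, and samples were grouped by their titles. According to the methods, paired reads had been aligned by the authors to hg38 with Bowtie2. They excluded reads mapped to multiple positions, kept 1 read per position and called peaks with MACS3. Versions, the calling threshold and how peaks of several libraries were joined are not given in the sources used here. The deposited lists hold chromosome, start, end and an unnamed whole number, the other value of the authors, read as support because it runs from 3 to the number of libraries of the line. Starts were read as counted from 0, so 1 was added to them.

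Gene starts were those of canonical transcripts in GENCODE release 44. Promoter peaks were those reaching within 2500 bp of a start, and start-site peaks those reaching within 500 bp. Peaks were shared when they overlapped by at least 1 bp. Member shares were set beside those of all protein-coding genes or all peaks, with no test, since a line has 1 list and neither genes nor peaks are replicates. Promoters came from RefSeq. Words of 8 letters were counted on the strand of the gene, and promoters were aligned end to end with Biopython 1.88, and identity is the percent of alignment columns that match. The overlap and uniqueness steps were tested on simulated data. Analyses used Python 3.11.15, numpy 2.4.6 and matplotlib 3.10.9. Alternatives were other windows, starts of all transcripts, peaks called in every library, no flanks and a 50% overlap of both peaks.

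The members, gene lists and rules were chosen with earlier results of these data known. Named with values were all members with a start-site peak, the C-type genes, the first and last gene of each cluster, and peaks outside start sites that were called in every library or were the widest of a list. A few further peaks and genes, such as the members without a peak whose sequences are shown and peaks with lower support, were chosen after their values were seen.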

Additional observations from a re-analysis of the deposited data

How the results depend on the processing

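Of 32 values recomputed under alternatives, 21 stayed within 1.5 times of the reported value and 11 moved further. With peaks called in every library only, 9 members had a start-site or a promoter peak in MM.1S and 4 in RPMI8226, the region held 15 and 11 peaks, and the density was 1.81 and 1.33 peaks per 100 kb. A promoter window of 5000 bp on either side raised the members with a promoter peak in RPMI8226 to 19. With an overlap of 50% of both peaks required, 31.2% of the MM.1S and 41.7% of the RPMI8226 peaks of the region were shared. Shares of all protein-coding genes or all peaks are not given under these alternatives. Whether the contrasts with them hold there was not tested. No paired analysis was possible because the lists hold no value for a single library, and for the same reason no library could be left out. The lists carry no depth, and the read totals in the study's supplement, which are unequal between libraries, were described but entered no count. An unlisted promoter is therefore not shown to be closed.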
